A study of Mus musculus with 24 samples.

Results

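Asb12, Lonrf3, Xrcc3 and Adamts4 are 4 of the 34787 gene names on a mouse expression array, and 6 of its 55681 probes carry them. They were picked for their genotype-by-time pattern in white adipose tissue of hPER1 S714G and hPER1 S714 mice. Its signs were those of the clock gene Arntl. The value behind the choice is the adipose genotype-by-time difference, which is mutant minus control at ZT13 minus the same difference at ZT1. Ranked by p for that difference among 23384 genes tested in adipose tissue, Xrcc3 stood at 7, Lonrf3 at 8, Asb12 at 9 and Adamts4 at 14. These ranks fall within the 29 genes (0.124%) past an adjusted p of 0.05, and they only describe the choice. All adipose differences of the 4 genes are therefore given without a test. The same contrasts in liver, whose arrays had no part in the choice, were tested.

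The study compared mice with human PER1 carrying the serine-to-glycine change at residue 714 (hPER1 S714G, called mutant) with mice with human PER1 without it (hPER1 S714, called control). All mice were C57BL/6 males of 2 months, kept on light-dark cycles for 10 days. Tissue was taken at ZT13 or ZT1, where ZT counts hours from lights on. The 8 groups were mutant ZT13, control ZT13, mutant ZT1 and control ZT1 in white adipose tissue and the same 4 in liver, each with 3 arrays. The labels call the repeats independent and do not say whether each array holds 1 animal, so p-values measure the spread between these arrays. The promoter and the site of the human gene, and whether mouse Per1 was present, are not given in the sources used here.

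The molecular clock is driven by BMAL1, the protein of Arntl, which with CLOCK or NPAS2 activates genes through a DNA element called the E-box. Its targets include the Per genes, whose proteins close the loop by repressing BMAL1, and the nuclear receptors REV-ERB, which repress Arntl itself. In adipose tissue and liver this loop times lipid and glucose metabolism. Asb12 encodes an ankyrin-repeat protein with a SOCS box, a family that selects substrates for ubiquitin ligases built on Cullin-5. Lonrf3 encodes a protein with a LON domain and RING fingers, and RING fingers are typical of ubiquitin ligases. Xrcc3 encodes a protein used in repair of DNA breaks by homologous recombination. Adamts4 encodes aggrecanase-1, a secreted metalloproteinase that cleaves the matrix proteoglycans aggrecan and versican.

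The promoters are shown because the E-box and related clock elements lie there in many clock-controlled genes. RefSeq windows of GRCm38.p6 were found for 3 of the 4 genes, namely Lonrf3 (chrX:36328159-36328408, plus strand), Asb12 (chrX:95478130-95478379, minus strand) and Xrcc3 (chr12:111813880-111814129, minus strand). Each runs over the 250 bases before the annotated start, from 5′ to 3′, with capitals marking a match to a searched motif.
Lonrf3: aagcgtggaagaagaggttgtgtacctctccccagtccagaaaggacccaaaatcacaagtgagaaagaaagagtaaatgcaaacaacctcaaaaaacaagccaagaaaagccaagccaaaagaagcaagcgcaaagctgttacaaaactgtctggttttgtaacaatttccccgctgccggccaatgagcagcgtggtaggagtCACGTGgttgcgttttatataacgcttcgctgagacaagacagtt
Asb12: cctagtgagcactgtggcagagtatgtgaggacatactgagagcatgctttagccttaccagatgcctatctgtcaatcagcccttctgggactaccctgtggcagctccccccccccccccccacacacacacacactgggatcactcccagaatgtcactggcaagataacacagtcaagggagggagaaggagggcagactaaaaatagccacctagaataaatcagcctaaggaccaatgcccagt
Xrcc3: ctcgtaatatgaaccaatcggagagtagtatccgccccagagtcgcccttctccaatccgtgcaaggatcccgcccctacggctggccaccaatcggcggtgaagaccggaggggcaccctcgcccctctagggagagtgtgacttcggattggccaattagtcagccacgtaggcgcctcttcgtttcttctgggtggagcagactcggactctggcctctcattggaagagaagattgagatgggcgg

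The Lonrf3 window holds an E-box, CACGTG, from 45 to 40 bases before the start. That palindrome was present in 6.02% of 32817 windows of the same length. The Asb12 and Xrcc3 windows held no match to CACGTG or to the other 3 motifs searched on both strands. Those were the E-prime box CACGTT (3.85% of windows), the D-box TTANGTAA (2.06%), and the core AGGTCA bound by ROR and REV-ERB receptors (14%). No motif overlapped another here. A match of letters is a description of the window and not a binding site.

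The probe coordinates follow mouse build mm9, as the array's annotation gives them, without an annotation of exon or untranslated region. Asb12 was measured by a probe at chrX:92665538-92665597 (minus strand) and Xrcc3 by a probe at chr12:113041404-113041463 (minus strand). Lonrf3 had probes at chrX:33902253-33902312 and chrX:33906756-33906815 (plus strand), and Adamts4 had probes at chr1:173189952-173190011 and chr1:173190709-173190768 (plus strand). In each pair the second was brighter in both tissues and gives the gene's value. Values are log2 of the background-subtracted signal of a probe relative to the 75th percentile of its own array, so 0 is the brightness of that percentile. Brightness differs between probes for reasons of sequence, so levels are compared only within a probe. A sample is a piece of tissue, in which fewer cells of a type and less RNA per cell cannot be told apart.

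Over the whole array, 45.5% to 71.2% of spots were well above background, and the 75th percentile of signal was 376 to 1808 intensity units. The number of arrays limits the precision. The tissue labels matched the marker genes. The summed relative signal of 10 adipocyte markers was 643 to 939 in adipose arrays and 19.5 to 34.1 in liver arrays. That of 9 hepatocyte markers was 126 to 632 in adipose arrays and 1009 to 1947 in liver arrays. The arrays lay on 3 slides of 8. Array medians were -3.38 to -3.03 on slide 1, -3.92 to -3.50 on slide 2 and -3.81 to -3.57 on slide 3. Mutant and control shared a slide in adipose tissue at ZT1 (2 mutant and 3 control arrays on slide 1) and in liver at ZT13 (3 mutant and 2 control arrays on slide 3). In adipose tissue at ZT13 and in liver at ZT1, mutants and controls lay on different slides. Those arrays alone cannot tell slide from genotype. A fit over all arrays with a fixed term for slide rests on the groups that were split between slides. These were mutant adipose tissue at ZT1 (2 arrays on slide 1 and 1 on slide 2) and control liver at ZT13 (1 array on slide 2 and 2 on slide 3). Such a fit takes slide to act alike in both tissues, which was not tested. No slide held both times of a genotype in the same tissue.

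In white adipose tissue, all 4 genes were higher in mutants than in controls at ZT13 and lower in mutants at ZT1. By group means, in controls each was lower at ZT13 than at ZT1, and in mutants each was higher at ZT13. For Adamts4 in mutants that difference was only 0.37 ± 0.34, and the brighter probe's arrays of both times overlapped. The control arrays of Lonrf3 also overlapped between the times. The signs were those of Arntl in every contrast, and the sizes were not. Mutant and control arrays did not overlap for 6 of 6 probes at ZT13, where 25.2% of all genes did not overlap, nor for 6 of 6 at ZT1, where 6.74% did not. The genes were chosen on this contrast, so nothing is read from these counts.

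Asb12 had log2 signals of -1.21, -0.76 and -1.31 in mutants at ZT13, against -3.44, -5.50 and -4.58 in controls at ZT13. At ZT1 it had -1.80, -2.77 and -2.57 in mutants and -0.57, -0.58 and 0.38 in controls. Control arrays therefore held both the highest and the lowest values, with the mutant arrays of both times between them, and no neighbouring groups overlapped. The difference at ZT13 was 3.42 ± 0.48 (log2, mutant minus control, SE), and at ZT1 it was -2.13 ± 0.48. ZT13 minus ZT1 was 1.29 ± 0.48 in mutants and -4.26 ± 0.48 in controls. Asb12 had the widest swing of the 4, with a genotype-by-time difference of 5.54 ± 0.67, the 6th by size in the tissue. It also had the widest scatter, with an SD of 1.03 in control ZT13 arrays.

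Lonrf3 had log2 signals of -0.58, -0.52 and -0.38 in mutants at ZT13, against -1.86, -2.64 and -2.73 in controls at ZT13. The ZT1 signals were -3.01, -3.80 and -3.34 in mutants and -1.50, -2.12 and -1.33 in controls. Here the mutant arrays held both extremes, highest at ZT13 and lowest at ZT1, while the control arrays of both times overlapped. The difference between mutants and controls was 1.92 ± 0.30 at ZT13 (3.78-fold) and -1.73 ± 0.30 at ZT1. The daily difference, ZT13 minus ZT1, was 2.89 ± 0.30 in mutants and -0.76 ± 0.30 in controls. The genotype-by-time difference was 3.65 ± 0.43 by this probe. The dimmer probe was well above background on 3 of 3 mutant and 1 of 3 control arrays at ZT13 and on 0 of 3 mutant and 2 of 3 control arrays at ZT1, so it gives a bound only, at least 2.90-fold higher at ZT13 than at ZT1 in mutants.

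Xrcc3 had log2 signals of -0.87, -0.96 and -1.07 in mutants at ZT13, against -2.57, -3.23 and -3.00 in controls at ZT13. At ZT1 the signals were -2.11, -2.41 and -2.09 in mutants and -1.03, -1.55 and -1.50 in controls. Mutant ZT13 and control ZT1 arrays were the highest and overlapped, then came mutant ZT1 and last control ZT13, in the order seen for Arntl. Xrcc3 had the narrowest swing and the least scatter of the 4. Its difference between mutants and controls was 1.97 ± 0.23 at ZT13 (3.92-fold) and -0.84 ± 0.23 at ZT1. ZT13 minus ZT1 was 1.24 ± 0.23 in mutants and -1.58 ± 0.23 in controls, and the genotype-by-time difference was 2.82 ± 0.33.

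Adamts4 had log2 signals of 1.47, 1.31 and 1.48 in mutants at ZT13, against -1.01, -0.17 and -1.17 in controls at ZT13. Its ZT1 signals were 1.65, 0.80 and 0.72 in mutants and 2.00, 1.93 and 2.77 in controls. Mutant arrays of the 2 times overlapped, between the high control ZT1 arrays and the low control ZT13 arrays. The difference between mutants and controls was 2.20 ± 0.34 at ZT13 (4.61-fold) and -1.18 ± 0.34 at ZT1. ZT13 minus ZT1 was 0.37 ± 0.34 in mutants and -3.02 ± 0.34 in controls, so the larger daily difference was in control tissue. With slide as a fixed block over 24 arrays these were 1.17 in mutants and -2.51 in controls. The genotype-by-time difference was 3.38 ± 0.48, and by the dimmer probe it was 3.52.

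Arntl, the gene they are set beside, had log2 signals of 1.32, 1.24 and 1.03 in mutants at ZT13, against -3.72, -4.37 and -4.90 in controls at ZT13. At ZT1 it read -1.84, -2.37 and -1.38 in mutants and 0.53, 0.17 and 0.27 in controls. No 2 groups overlapped, and mutants and controls changed places as the highest group between the 2 times. ZT13 minus ZT1 was 3.06 ± 0.32 in mutants and -4.65 ± 0.32 in controls. Set beside these values, Asb12 and Adamts4 had the larger part of their daily difference in controls, as Arntl did, Lonrf3 had it in mutants, and Xrcc3 had values of like size in both.

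**Figure D1:**
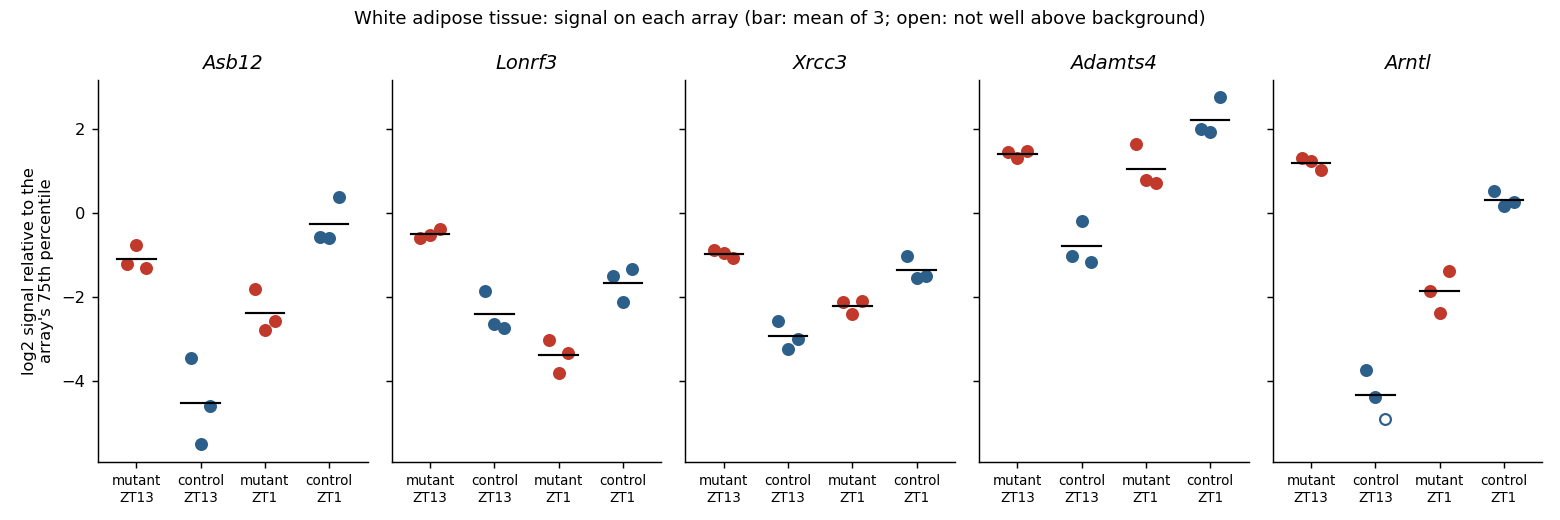
Log2 signal relative to the array's 75th percentile on each of the 12 white adipose arrays, for the 4 genes and Arntl, with mutants in red, controls in blue, a bar at the mean of 3 and an open circle where the probe was not well above background. At ZT13 every mutant array lies above every control array, and at ZT1 every control array lies above every mutant array.

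Likeness to other genes was measured over the 12 adipose arrays as the root mean square difference of log2 signals, each centred on its own mean, among 23275 genes. The arrays share slides and groups, so these distances describe the profiles and were not tested. Nearest to Asb12 was Adamts4 at 0.83, then Dtx4 (a Deltex-family ubiquitin ligase) at 0.88, Dusp10 (a phosphatase of MAP kinases) at 0.90, the clock gene Npas2 at 0.93 and Ptx3 (a secreted pentraxin) at 0.96. Arntl came next for Asb12, at rank 6. Adamts4 lay nearest to Dtx4 at 0.39, Ptx3 at 0.40, the neurotrophin receptor gene Ngfr at 0.42, Spon2 at 0.50 and the tight-junction gene Cldn5 at 0.52. Asb12 and Adamts4 shared Dtx4 and Ptx3 among their 5 nearest genes, but Asb12 ranked only 708 for Adamts4. Nothing is read from likeness between the 4 genes, since all were chosen for this pattern.

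Lonrf3 lay nearest to Cdkn1a, the gene of the cell-cycle inhibitor p21, at 0.50. The clock-linked repressor gene Nfil3 followed at 0.52, then Alkal2 at 0.53, Leo1 at 0.61 and Dctd at 0.71. Xrcc3 lay nearest to Clock itself at 0.36, then Zfp469 and E2f2 at 0.40 each, and Angptl8 and Pcdh12 at 0.43 each. Arntl ranked only 21639 for Lonrf3, 22380 for Xrcc3 and 17384 for Adamts4, and the distance counts the size of a swing as well as its direction. The genotype-by-time difference of Arntl was 7.71 ± 0.45.

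In liver, Adamts4 and Lonrf3 had a positive genotype-by-time difference past the threshold, where 31.1% of the 21847 genes tested passed. Adamts4 repeated its adipose order of groups, and Lonrf3 differed between genotypes at ZT1 and not detectably at ZT13. Xrcc3 entered the test only through the mutant ZT13 group, the one group with all 3 arrays well above background, so its value is given and not counted with the others. Asb12 could not be tested. The liver contrasts share arrays with each other and are not separate evidence. Whether a gene's pattern differed between the tissues was not tested, because its adipose values chose it.

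Adamts4 had liver log2 signals of -0.73, -1.68 and -1.56 in mutants at ZT13, against -3.53, -4.14 and -3.84 in controls at ZT13. Its ZT1 arrays read -1.91, -2.43 and -2.54 in mutants and -0.46, -0.81 and -0.39 in controls. Mutants were high at ZT13 and controls at ZT1, with no overlap of genotypes at either time. Adamts4 was 2.51 ± 0.27 higher in mutants at ZT13, or 5.70-fold (limma, adjusted p = 0.000852). At ZT1 the difference was -1.74 ± 0.27 (adjusted p = 0.000699). The genotype-by-time difference was 4.25 ± 0.38 (adjusted p = 6.65e-05).

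Control livers had less Adamts4 at ZT13 than at ZT1, with a difference of -3.28 ± 0.27 (limma, adjusted p = 1.24e-05). In mutant livers ZT13 minus ZT1 was 0.97 ± 0.27, which did not pass (adjusted p = 0.105, 95% interval 0.38 to 1.57 unadjusted). Over all genes this daily test passed for 51.2% in controls and for 1.99% in mutants. The difference at ZT13 was 2.67 within slide 3, which held both genotypes (adjusted p = 0.0206). At ZT1 the genotypes lay on different slides. With slide as a random block over 24 arrays the ZT1 difference was -1.58 (adjusted p = 0.122), and with slide as a fixed block it was -1.24 (adjusted p = 0.512). The genotype-by-time difference with slide as a fixed block remained past the threshold (adjusted p = 0.00538). In the same fit ZT13 minus ZT1 in controls was -2.47 (adjusted p = 0.0985). The dimmer Adamts4 probe was well above background on only 1 of 12 liver arrays and was not tested.

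Lonrf3 had liver log2 signals of -0.40, -0.53 and -0.54 in mutants at ZT13, against -0.63, -0.52 and -0.65 in controls at ZT13. The ZT1 arrays read -2.85, -2.20 and -2.25 in mutants and -0.19, -0.95 and -0.47 in controls. The 3 mutant ZT1 arrays stood apart and the other 9 lay together. At ZT1 Lonrf3 was lower in mutants, with a difference of -1.90 ± 0.22 (limma, adjusted p = 0.000132). At ZT13 the difference was 0.11 ± 0.22 (adjusted p = 0.908), with a 95% interval of -0.36 to 0.58. Mutant livers had more Lonrf3 at ZT13 than at ZT1, by 1.94 ± 0.22 (adjusted p = 0.00162). In controls ZT13 minus ZT1 was -0.063 ± 0.22 (adjusted p = 0.820).

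The liver genotype-by-time difference of Lonrf3 was 2.01 ± 0.30 (limma, adjusted p = 0.00126). Its dimmer probe was not well above background on any mutant ZT1 array, against 2 of 3 control ZT1 arrays, and read at least 3.15-fold lower in mutants than in controls at ZT1. Mutant minus control passed for Adamts4 alone of the pair at ZT13, where 3.02% of all genes passed, and for both Adamts4 and Lonrf3 at ZT1, where 45.4% did. With slide as a random block the Lonrf3 difference at ZT1 was -1.92 (adjusted p = 0.0224), and with slide as a fixed block it was -1.96 (adjusted p = 0.121). The fixed block also ended the calls of the genotype-by-time difference (2.06 ± 0.58, adjusted p = 0.105) and of ZT13 minus ZT1 in mutants (1.89 ± 0.50, adjusted p = 0.168). Both estimates stayed near those without the block (2.01 ± 0.30 and 1.94 ± 0.22), and their SEs were wider. The fixed block judges slide 1 against slide 2, the slides of liver ZT1, from mutant adipose arrays of ZT1 alone. It therefore cannot settle the share of slide in the Lonrf3 difference, which was not tested beyond these fits.

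Xrcc3 had liver log2 signals of -3.11, -3.25 and -3.22 in mutants at ZT13, against -3.43, -3.71 and -3.72 in controls at ZT13. ZT1 signals were -3.98, -3.27 and -3.06 in mutants and -2.87, -2.92 and -3.19 in controls. All 12 values lay within a narrow range. The probe was well above background on 3 of 3 mutant ZT13 arrays and on 2 of 3 arrays in each other group. The genotype-by-time difference was 0.88 ± 0.31 (limma, adjusted p = 0.0491, and 0.106 without the filter that it passed only through mutants at ZT13). Mutant minus control was 0.43 ± 0.22 at ZT13 (adjusted p = 0.396, 95% interval -0.042 to 0.91) and -0.44 ± 0.22 at ZT1 (adjusted p = 0.113, 95% interval -0.92 to 0.032). Control livers had less Xrcc3 at ZT13 than at ZT1, with a difference of -0.63 ± 0.22 (adjusted p = 0.0306), and in mutants ZT13 minus ZT1 was 0.25 ± 0.22 (adjusted p = 0.691).

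The Xrcc3 genotype-by-time call in liver was lost on leaving out any of 10 of the 12 arrays, with adjusted p of 0.0287 to 0.102 over all 12. It held only without control ZT1 replicate 3 (0.97) or without mutant ZT1 replicate 3 (1.06). With quantile normalization it was 0.34 (adjusted p = 0.485). The daily difference of Xrcc3 in controls was also lost there (-0.014, adjusted p = 0.966) and with slide as a random block (-0.64, adjusted p = 0.236). Mutant and control liver arrays did not overlap for Adamts4 at ZT13, where 29.3% of all genes did not, nor for Adamts4 and Lonrf3 at ZT1, where 52.4% did not. Those of Xrcc3 did not overlap at ZT13 either. It passed the filter only through mutants at ZT13, so nothing is read from that.

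Asb12 was not well above background on 11 of the 12 liver arrays and was not tested there. The exception was mutant ZT1 replicate 1, at -1.71, while the other 2 mutant ZT1 arrays read -6.78 and -6.81. No fold is given between liver groups for Asb12.

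**Figure D2:**
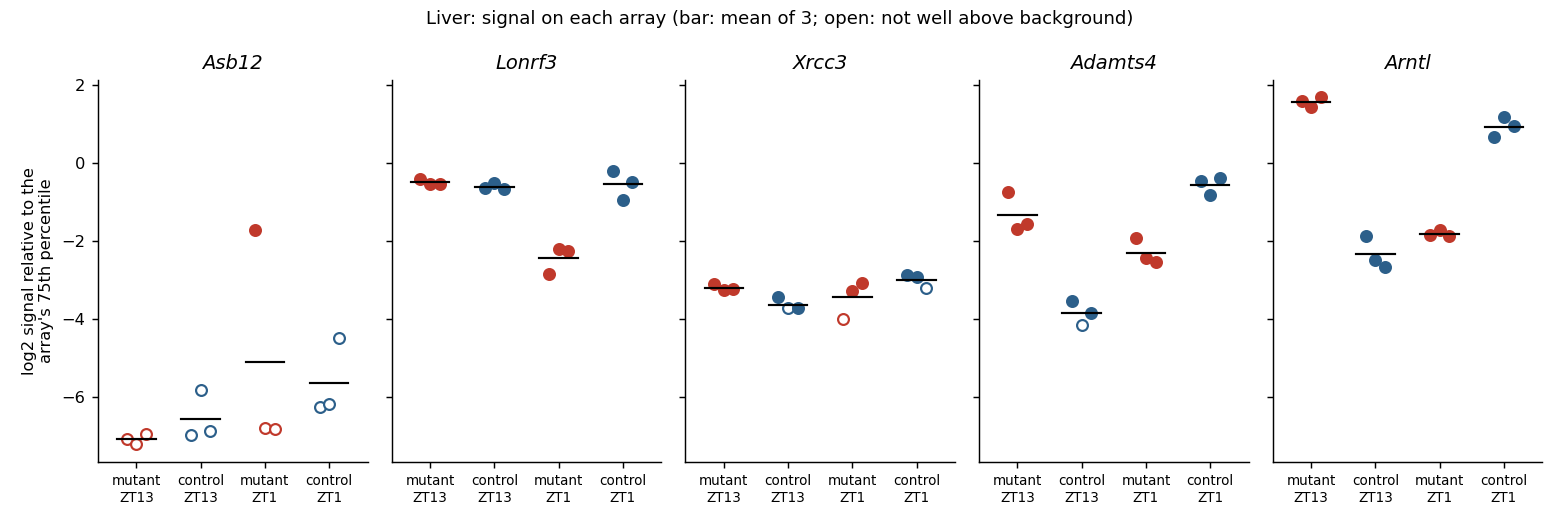
Log2 signal relative to the array's 75th percentile on each of the 12 liver arrays, for the 4 genes and Arntl, drawn as for adipose tissue. Adamts4 follows the order of groups of its adipose values, only the mutant ZT1 arrays of Lonrf3 stand apart, and Asb12 is at background on all arrays but 1.

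**Figure D3:**
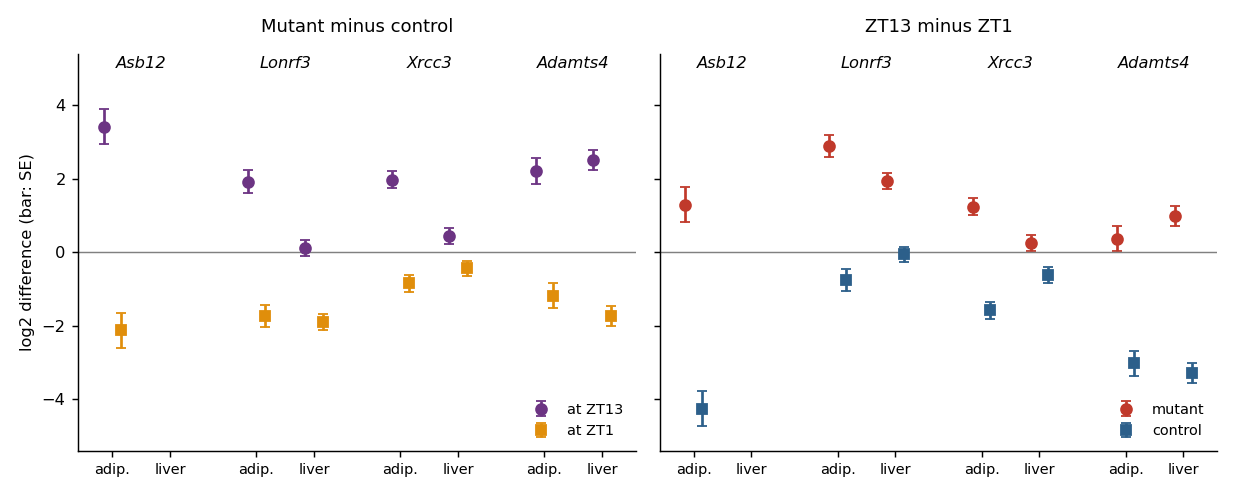
Log2 differences with standard errors for each gene in adipose tissue (adip.) and liver, as mutant minus control at ZT13 and ZT1 on the left and as ZT13 minus ZT1 in mutants and controls on the right. Adipose values are positive at ZT13 and negative at ZT1 for all 4 genes, the liver value at ZT13 is 0.11 for Lonrf3 and 0.43 for Xrcc3, and Asb12 has no liver value because it was at background.

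**Figure D4:**
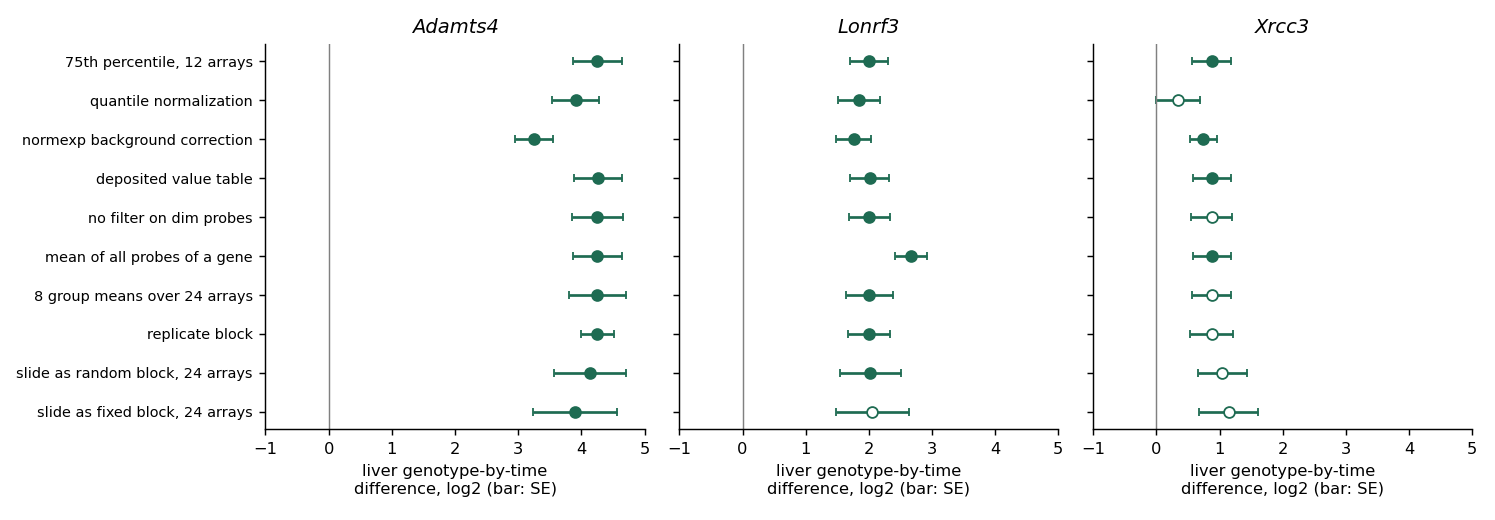
Liver genotype-by-time difference of Adamts4, Lonrf3 and Xrcc3 (log2, bars are standard errors) under the settings named on the left, with filled circles where the adjusted p was under 0.05. Adamts4 is filled under all 10 settings shown, Lonrf3 is open with slide as a fixed block (2.06), and Xrcc3 is open under 6 of the settings.

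The level of each gene was next compared between tissues, as the mean of adipose minus liver over the 4 matched groups, which does not use the genotype-by-time pattern. Adamts4 and Xrcc3 were higher in adipose tissue and Lonrf3 was lower. Of all 24314 genes tested 75.4% passed this test, so the calls of these 3 say little about them. Adamts4 was 2.98 ± 0.16 higher in adipose tissue (limma, adjusted p = 1.13e-12), and its group means were 2.74 to 3.35 higher in each matched pair. Xrcc3 was 1.45 ± 0.11 higher (adjusted p = 3.29e-10), and 0.85 higher with normexp background correction. Lonrf3 was lower in adipose tissue, with a difference of -0.97 ± 0.13 (adjusted p = 1.96e-06).

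By group means the tissue gap of Lonrf3 was uneven over the groups. Lonrf3 was chosen for how its adipose values differ between groups, so this is described and was not tested. At mutant ZT13 Lonrf3 averaged -0.49 ± 0.10 in adipose tissue and -0.49 ± 0.077 in liver (SD, n = 3 each). At control ZT13 it averaged -2.41 ± 0.48 in adipose tissue and -0.60 ± 0.072 in liver (SD, n = 3 each), so adipose controls were the lower. Within slides 1 and 3 the tissue difference of Lonrf3 was -0.56 (adjusted p = 0.0126).

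Asb12 was well above background on 12 of 12 adipose arrays and on 1 of 12 liver arrays, so it could enter a comparison of tissues only through adipose tissue, and bounds stand in place of a test. Asb12 was at least 14.0-fold higher in adipose tissue than in liver in mutants at ZT13, and at least 10.4-fold higher in controls at ZT1. Controls at ZT13 gave no bound, and none was set for mutants at ZT1, where 1 liver array was well above background. Both bounds come from groups that were high in the adipose pattern by which Asb12 was picked. The bound takes, for each liver array, the higher of the probe's signal and the dimmest signal called well above background.

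Relatives of Asb12, Lonrf3 and Adamts4 were examined as lists. In adipose tissue, 0 of 51 genes in 5 family lists passed the genotype-by-time test (limma), where 0.124% of all genes passed, and 4 of 51 had an unadjusted p under 0.05, where 7.07% of all genes did. The ASB family without Asb12 gave 0 of 12 genes, with a median difference of -0.11, and the Cullin-5 ligase core gave 0 of 7, with a median of 0.18. The LON and RING list gave 0 of 4 (median 0.053), ADAMTS genes 0 of 18 (-0.011) and aggrecanase substrates and inhibitor 0 of 10 (-0.30). The median over all genes was 0.082. The lowest p in these lists belonged to Timp3, which encodes an inhibitor of ADAMTS4, at -0.97 (adjusted p = 0.420). Vcan, which encodes its substrate versican, was at -1.08 (adjusted p = 0.651). Lonrf1, a close relative of Lonrf3, was at -0.999 (adjusted p = 0.649).

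In liver, 5 of 44 family genes had a positive and 6 a negative genotype-by-time difference past the threshold, beside the 31.1% of all genes already given. The ADAMTS list had 3 positive calls of 14 and a median of 0.57, against 0.18 over all genes. They were Adamts1 at 0.92 (limma, adjusted p = 0.00763), Adamts9 at 1.46 (adjusted p = 0.0119) and Adamts8 at 1.09 (adjusted p = 0.0358), all proteases that can cleave proteoglycans, and each was below the 4.25 of Adamts4. Among 11 ASB genes, Asb4 (1.26) and Asb10 (1.19) were positive and Asb1 (-1.38) was negative. In the Cullin-5 list of 7, Nedd8, the modifier that activates cullins, was at -1.16 and Ube2f, which conjugates it to Cullin-5, at -0.85.

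In the LON and RING list of 4, Lonrf1 (-1.19) and Crbn (-0.97), which encodes cereblon, passed with the opposite sign to Lonrf3. Timp3 was the 1 call of 8 in the aggrecanase list, at -1.16 (limma, adjusted p = 0.00966). The slide limits given for the 4 genes hold for these liver values also.

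In adipose tissue, where 0.124% of all genes passed, 3 of 5 late-night genes (Arntl 7.71, Npas2 6.05 and Nfil3 3.71) had a positive genotype-by-time difference past the threshold. Of 8 daytime genes 5 had a negative one, among them Dbp at -4.40 and Nr1d1 at -3.22. In liver, where 31.1% of all genes passed, 5 of 5 late-night genes were positive and 6 of 8 daytime genes were negative past the threshold.

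**Figure D5:**
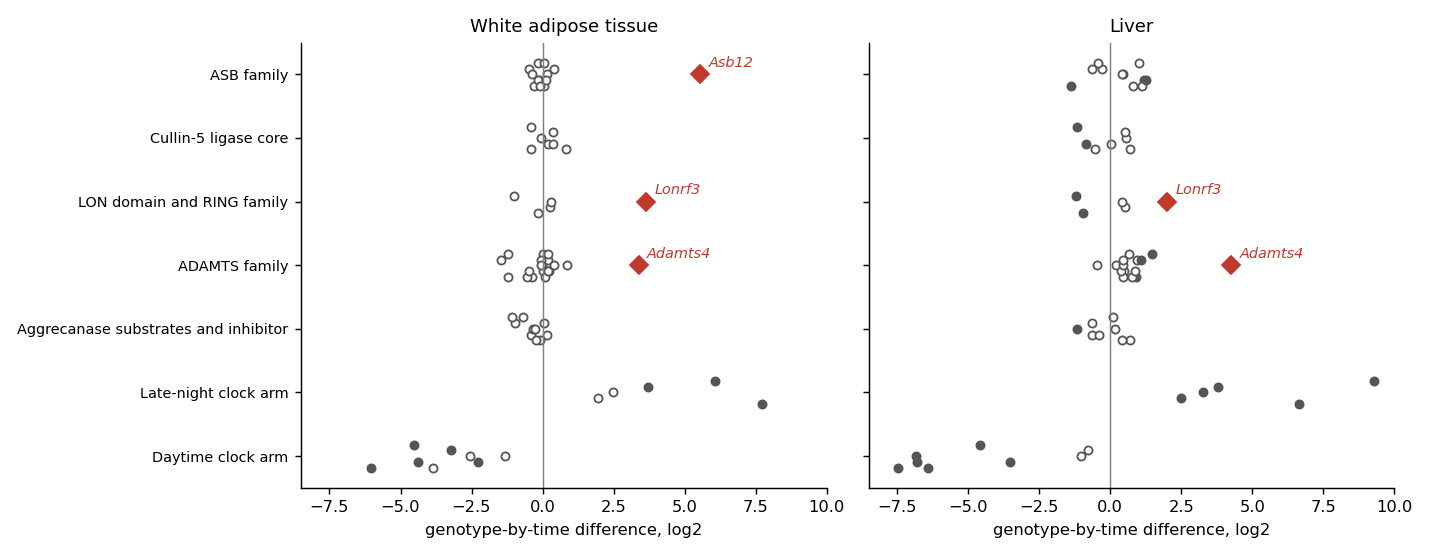
Genotype-by-time difference (log2) of each tested gene in 5 family lists and 2 clock lists, in adipose tissue on the left and liver on the right, filled where the adjusted p was under 0.05, with Asb12, Lonrf3 and Adamts4 as red diamonds beside their family. In adipose tissue the family genes lie between -1.48 and 0.88, and the diamonds lie at 3.38 to 5.54. The diamonds were chosen on this adipose value, so nothing is read from their distance to the family genes.

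Markers of other cell types were read beside the adipose values. Of 99 genes in 12 marker lists, 0 passed the adipose genotype-by-time test (limma) and 15 had an unadjusted p under 0.05, where 0.124% and 7.07% of all genes did. For 9 of 9 hepatocyte markers the difference was above 0, with a median of 2.08, and 0 of 9 had an unadjusted p under 0.05. Their summed relative signal was 150 to 213 in mutants at ZT13, 149 to 290 in controls at ZT13, 126 to 258 in mutants at ZT1 and 185 to 632 in controls at ZT1. For 10 macrophage markers the median was -0.89, with 1 above 0 and 5 at an unadjusted p under 0.05. Macrophage sums were 156 to 201 in mutants and 167 to 223 in controls at ZT13. At ZT1 they were 282 to 361 in mutants and 251 to 347 in controls. Of 8 brown adipocyte markers 7 passed the filter on dim probes, Ucp1 not among them, and for 7 of 7 the difference was above 0, with a median of 0.66. Their sums were 7.55 to 11.3 in mutants at ZT13, 6.90 to 12.9 in controls at ZT13, 6.62 to 9.04 in mutants at ZT1 and 10.8 to 18.8 in controls at ZT1. Brown adipocyte sums were lower in mutants at ZT1 without overlap and overlapped between mutants and controls at ZT13. For 8 of 10 endothelial markers the difference was above 0, with a median of 0.32, and 3 had an unadjusted p under 0.05. Endothelial sums were 64.5 to 76.0 in mutants and 42.9 to 58.2 in controls at ZT13, without overlap. At ZT1 they overlapped, at 56.7 to 72.6 in mutants and 62.0 to 66.8 in controls. Cldn5, among the genes nearest to Adamts4, was among these markers. The 10 adipocyte markers had a median of 0.11. The adipocyte and macrophage markers were well above background on every adipose array. At least 6 of the 9 hepatocyte markers were so on each mutant ZT1 array, and all 9 on the other adipose arrays. The part of other cells in the 4 genes' adipose values was not tested.

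Genes that lie beside Asb12, Xrcc3 and Adamts4 on the chromosome, as listed by RefSeq, were read in the same fit. No values are given for those beside Lonrf3. In adipose tissue Amer1 and Zc4h2, on either side of Asb12, had genotype-by-time differences of 1.56 and 0.56 (limma, adjusted p = 0.420 and 0.922). Klc1 and Zfyve21, on either side of Xrcc3, were at 0.45 and 0.53 (adjusted p = 0.825 and 0.870), and B4galt3, beside Adamts4, was at 0.29 (adjusted p = 0.964). None of these 5 passed the threshold, and Amer1 was the 1 with an unadjusted p under 0.05. In liver Klc1 alone of these 5 passed, at 0.70 (limma, adjusted p = 0.0281), where 31.1% of all genes passed.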

How the data were processed

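RNA of 24 tissue samples was labelled with Cy3 and hybridised to 1-colour Agilent mouse arrays on 3 slides. The deposited scanner files give an intensity per spot from Agilent Feature Extraction 10.7.3.1, per the file headers, and the processed signal is an intensity after background subtraction. The deposited value table is on a log2 scale, and every column equalled log2 of the processed signal minus a constant, within a tolerance of 0.01 for 99.4% of probes or more. Its column medians lay between -3.91 and -3.02 with a 75th percentile near 0, and no centring by probe was seen.

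Control spots and spots with outlier flags were left out and spots of a probe were averaged. Log2 processed signals were set relative to each array's 75th percentile. A probe entered if all 3 arrays of some group of the tissue had it well above background, and the brightest probe stood for a gene. Names came from RefSeq accessions for 26762 probes, symbols for 3819, synonyms for 639 and the files for 24461.

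The tests were two-sided moderated tests of limma 3.58.1 (lmFit, then eBayes) under R 4.3.3, over 4 group means of a tissue's 12 arrays, or 8 over 24 arrays for tissues. Adjusted p is Benjamini-Hochberg over all genes tested, with 0.05 as threshold. The script was tested on simulated data. The genes and lists were chosen with earlier results of these data known. Named are the 4 genes and Arntl, the 5 nearest profiles of each, list genes of lowest p (up to 4 past the threshold, otherwise 1 or 2), and, added after their values were seen, the neighbouring genes. A gene list kept for Xrcc3 and 1 neighbouring gene are not reported here. Alternatives were quantile normalization, normexp on mean and background intensity (offset 50), no filter, the deposited table, the mean of probes, other fits, slide and replicate blocks, arrays of a shared slide, and leaving out each array.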

Additional observations from a re-analysis of the deposited data

Results flagged for a closer look

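Each of these liver results is a difference between genotypes in the change over the day, tested as an interaction with limma. Adamts4 had a genotype-by-time difference of 4.25 in liver, with mutants above controls at ZT13 and below them at ZT1. Lonrf3 had one of 2.01, with overlapping mutants and controls at ZT13 and mutants lower at ZT1. Xrcc3 had one of 0.88, with mutants above controls at ZT13 and overlapping groups at ZT1. It passed the filter on dim probes only through mutants at ZT13, so nothing is read from its higher values there. In all 3 the mutant and control arrays of ZT1 lay on different slides, and the part of slide was not tested beyond the block fits. The fixed block judges those slides from mutant adipose arrays of ZT1 alone.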

How the results depend on the processing

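Of the genes' tested liver and tissue results, 144 values from alternative settings kept direction and side of the threshold, 17 lost the threshold, 2 gained it and 2 turned direction. Of their adipose genotype-by-time differences, which have no test, 31 values moved by less than 1 SD and 5 by more. Causes were not tested. With normexp the adipose genotype-by-time difference was 4.12 for Asb12, 3.04 for Lonrf3 and 2.49 for Xrcc3, and with slide as a fixed block it was 4.82 for Asb12 and 3.16 for Xrcc3. In liver, slide as a fixed block ended the calls of Adamts4 in control ZT13 minus ZT1 (-2.47) and mutant minus control at ZT1 (-1.24), and of Lonrf3 in the genotype-by-time difference (2.06), mutant ZT13 minus ZT1 (1.89) and mutant minus control at ZT1 (-1.96). Slide as a random block ended that of Adamts4 at ZT1 (-1.58).

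The Xrcc3 genotype-by-time call in liver was lost with no filter, with 24 arrays and with the replicate block (0.88 each, adjusted p = 0.106, 0.0605 and 0.0742), with quantile normalization (0.34), and with slide as a fixed (1.14) or random block (1.04). Its control ZT13 minus ZT1 call was lost with no filter and the replicate block (-0.63 each, adjusted p = 0.0590 and 0.0505), quantile normalization (-0.014), and slide as a fixed (-0.61) or random block (-0.64). Its difference at ZT1 passed with normexp (-0.54) and turned to 0.039 with quantile normalization, as did Lonrf3 in control ZT13 minus ZT1 (0.048), neither past the threshold. Quantile normalization moved the median gene at liver ZT1 to -0.055, against -0.17 with the 75th percentile, that of adipose control ZT13 minus ZT1 to -0.078, against -0.26, and that of adipose minus liver to 0.037, against -0.14.

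Leaving out an array in turn, Xrcc3 ranged from 0.60 to 1.06 in the genotype-by-time difference, from -0.73 to -0.57 in control ZT13 minus ZT1 (call lost without control ZT1 replicate 1 or 2, or control ZT13 replicate 2 or 3), from -0.63 to -0.17 at ZT1 (passing without mutant ZT1 replicate 3, adjusted p = 0.0470) and from -0.025 to 0.43 in mutant ZT13 minus ZT1 (turned without mutant ZT1 replicate 1). Lonrf3 ranged from -0.27 to 0.11 in control ZT13 minus ZT1 (turned without control ZT1 replicate 1). No other call was lost on leaving out an array.

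Same-numbered arrays deviated together (correlation over 0.1) in 3 of 18 adipose pairs, 3 of 18 liver pairs and 1 of 12 pairs across tissues. Arrays of different number did so in 16 of 36, 2 of 36 and 5 of 24 pairs. With 3 arrays per group, this check cannot decide whether the numbers pair the samples. With the replicate block the Adamts4 difference of 0.97 in mutant ZT13 minus ZT1 passed (adjusted p = 0.0418), and 10 genes passed the adipose genotype-by-time test, against 29 without it, 14 without the filter, 75 over 24 arrays and 10 to 32 leaving out an array. Liver genotype-by-time calls numbered 6801, against 3371 over 24 arrays, 435 with slide as a random and 281 as a fixed block. At liver ZT1 they were 9920, against 123 and 82. For control ZT13 minus ZT1 they were 11187, against 1131 and 161. For mutant ZT13 minus ZT1 they were 434, against 72 and 65, 85 with no filter, 261 over 24 arrays, 268 with the replicate block and 99 to 919 leaving out an array (over 1.5-fold away for 8 of 12, namely the 6 mutant arrays and control ZT1 replicates 1 and 2). At liver ZT13 they were 659, against 272 with no filter and 274 to 1279 leaving out an array (over 1.5-fold away for 6 of 12, namely the mutant ZT13 arrays, control ZT13 replicates 2 and 3 and control ZT1 replicate 1). Probes at background limit what can be said of Asb12 in liver, of Xrcc3 in liver and of the dimmer probes of Lonrf3 and Adamts4.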
